A study of Mus musculus with 2 samples.

Results

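Immunoglobulin light chain transcripts were followed through 56 of the 41174 probes of a whole mouse genome array. A probe was a member when its description named an immunoglobulin together with a light, kappa or lambda chain, or when its gene name was that of a kappa or lambda segment. Of the 56 members, 51 were found by their description and 5 by their gene name only. The members carry 51 accessions and 48 names. By chain, 45 were kappa, 10 were lambda, and 1, U55685, had neither chain in its label nor a position. The rule used only text, but this set of probes was put forward with results of these arrays in view, so the diet ratios below are a description and carry no test.

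The RNA came from the small intestine of C57BL/6 mice of 6 to 8 weeks. One group ate conventional chow (Conv) and the other a diet free of food antigen that holds amino acids in place of protein (FAF), kept for up to 5 generations. Germ-free as well as specific-pathogen-free housing appears in the labels, without a statement of which applied to the RNA of either diet. Pooling of mice and the segment of intestine are not given in the sources used here. Both RNA samples were hybridised together on 2 arrays, with FAF in Cy5 on the first and in Cy3 on the second. These arrays are a technical dye swap of 1 RNA sample per diet.

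An immunoglobulin light chain pairs with a heavy chain to form the antigen binding site of an antibody. Each B cell joins a variable segment to a joining segment at the kappa or at the lambda locus, and the joined exon is spliced to a constant exon. Most mouse antibodies carry kappa, whose locus holds many variable segments, while the mouse lambda locus holds few. In the small intestine the main source of light chain RNA is the plasma cell of the lamina propria, which secretes IgA. A probe in a variable segment therefore reads the B cell clones that use this segment or a close relative, and a probe in a constant exon reads all clones of that isotype.

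The probes higher in FAF by the rule given below, and those lowest in FAF, lie in kappa variable segments. They are shown here because the results turn on them. The first set holds the probes higher in FAF, and capitals mark the longest run of bases shared with any other probe of the array, which is 15 bases for X05391 and 13 bases for the other two.
X05391: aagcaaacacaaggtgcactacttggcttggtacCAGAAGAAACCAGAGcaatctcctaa
Igkv2-112: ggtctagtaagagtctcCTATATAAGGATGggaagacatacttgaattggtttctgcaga
NP513809: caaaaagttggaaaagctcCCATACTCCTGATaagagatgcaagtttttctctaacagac

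The second set holds the 3 lowest probes in FAF. M32765 and U20820 share a run of 23 bases, which is in capitals in both. Over the 41 bases in which this pair overlaps, 40 match. In Igkv19-93 the capitals again mark the longest run shared with any other probe, here 16 bases.
Igkv19-93: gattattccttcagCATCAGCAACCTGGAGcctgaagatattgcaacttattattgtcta
M32765: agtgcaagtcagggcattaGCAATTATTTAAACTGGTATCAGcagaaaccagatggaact
U20820: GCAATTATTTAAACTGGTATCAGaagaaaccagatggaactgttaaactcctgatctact

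The next set reaches from a variable segment into the joining segment, so that each probe spans the junction made by recombination. Capitals mark the match to TTCGG, then 4 bases of any kind, then GG, any base and AC, at the start of the joining framework. On either strand, this pattern was present in 4 of the 56 members (7.14%) and in 8 of all 41174 probes (0.0194%).
Igkv1-117: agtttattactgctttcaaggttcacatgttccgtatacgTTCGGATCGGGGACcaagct
U55685: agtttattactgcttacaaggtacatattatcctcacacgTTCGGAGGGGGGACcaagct
L18942: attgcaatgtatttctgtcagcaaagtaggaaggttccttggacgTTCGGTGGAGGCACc
Iglv1 (AY151141): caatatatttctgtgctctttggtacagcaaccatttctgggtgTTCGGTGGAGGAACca

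The last set compares the constant exon of lambda 1 with that of lambda 3. The probes overlap by 37 bases, of which 30 match, and capitals mark the 7 bases that differ.
Iglv1 (AK008094): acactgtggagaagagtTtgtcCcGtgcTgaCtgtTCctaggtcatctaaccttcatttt
AF138742: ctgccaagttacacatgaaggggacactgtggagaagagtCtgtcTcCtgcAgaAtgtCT

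Of the 56 members, 55 were measured, meaning well above background on both arrays in at least 1 diet; the kappa probe U29595 was not. Ratios are given as log2 of FAF over Conv, as the mean of the 2 arrays, and the number after ± is the distance of either array from that mean. This distance measures dye and hybridisation error only, and the spread between mice is unknown. Higher or lower in the counts below means at least 2-fold in the mean of the arrays, and 1.5-fold or more in the same direction on each of them. In bulk tissue, fewer cells of a type and less RNA per cell cannot be told apart.

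By this rule 3 light chain probes were higher in FAF, which is 5.45% of the 55 measured, against 1.25% of all 25438 measured probes. In the other direction 8 were lower, which is 14.5%, against 0.692% of all. In either direction the shares were 20% and 1.95%. The light chain ratios ran from -2.29 to 3.81 with an SD of 0.98, whereas all measured probes had an SD of 0.34. Their median was -0.14, beside 0.01 for all probes, and 32 of the 55 (58.2%) were below 0, beside 48.9% of all. The array files place 42 kappa probes on chromosome 6 and 9 lambda probes on chromosome 16 in mouse build mm9.

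X05391, a kappa probe taken from the variable region of an IgM antibody, had the highest ratio of the members, and of all measured probes of the array, under the normalisation used here. Its FAF signal was 1941 on the array with FAF in Cy5 and 1633 on the other, and its Conv signal was 147 and 110. Both FAF signals lay far above both Conv signals. The log2 ratio was 3.81 ± 0.08, or 14.0-fold higher in FAF. It was 4.40 with a background offset of 10, and 4.89 with the log ratio of the array software, by which Igkv2-112 stood above it at 5.0. The probe maps to chr6:70008779-70008838 on the minus strand.

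Igkv2-112, a variable segment of kappa family 2, had FAF signals of 465 and 400 and Conv signals of 94.0 and 76.3. It was well above background in FAF only. Its log2 ratio was 2.35 ± 0.04, or 5.09-fold higher in FAF in the mean of the arrays. It maps to chr6:68170470-68170529. NP513809, described as an Ig light chain, had FAF signals of 306 and 333 and Conv signals of 94.0 and 149. It too was dim in Conv, with a log2 ratio of 1.43 ± 0.27, or 2.7-fold in the mean of the arrays. The arrays gave 1.70 and 1.16. The probe maps to chr6:68424922-68424981. For these dim probes the offset of 10 gave 3.29 for Igkv2-112 and 2.04 for NP513809, and the software ratio of NP513809 was 3.16. X05391 was thus the only member of the 3 higher probes with a signal well above background in both diets.

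On the lower side, Igkv19-93 had FAF signals of 293 and 300 and Conv signals of 1321 and 1589. The log2 ratio was -2.29 ± 0.12, or 4.89-fold lower in FAF, and the probe maps to chr6:68686311-68686370. M32765 had FAF signals of 334 and 333 and Conv signals of 1309 and 1542, with a log2 ratio of -2.09 ± 0.12, and it maps to chr6:68654660-68654719. U20820 had FAF signals of 260 and 267 and Conv signals of 916 and 1101, with a log2 ratio of -1.93 ± 0.11, and it maps to chr6:68582096-68582155. All 3 probes lie on the minus strand within a short stretch of the kappa locus. In each of them the Conv signals were higher than the FAF signals on both arrays with no overlap. Since M32765 and U20820 share the 23-base run printed above, a transcript that binds one can bind the other, and they are not independent readings.

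For M32765 and U20820, probes that are not members but map close by gave similar ratios. X63808, labelled as an IgM kappa variable region, starts 138 bases from M32765 and stood at -2.14 ± 0.10. X75105, labelled as an antibody light chain without the word immunoglobulin, starts 120 bases from U20820 and stood at -2.20 ± 0.14. The longest run shared within each of these pairs is 7 and 6 bases. The same comparison was possible for 3 more members. Z25442 stood at 0.49 and its neighbour at 0.70, AJ279029 at -0.15 and its neighbour S60946 at -0.92, and BC080787 at -0.14 and its neighbour AF433163 at 0.47. These neighbours, on the same strand within 500 bases and not members, thus had ratios of the same sign in 4 of 5 pairs, though not of like size in all. That a pair reads the same segment rests on this distance only. Pairs of members were not counted. Among kappa members that lie close together, both U55589 probes stood below 0, at -1.0 and -0.97. Igkv4-71 and Igkv4-57-1 stood on opposite sides of 0, at -0.25 and 0.46.

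Igkv1-117, whose probe crosses from variable into joining sequence and is labelled as a VJ2 region, had FAF signals of 624 and 625. Its Conv signals were 1785 and 1936, and the log2 ratio was -1.57 ± 0.06, or 2.98-fold lower. EU817850, from a monoclonal antibody light chain, had FAF signals of 318 and 320 and Conv signals of 782 and 843, at -1.35 ± 0.05, and it maps to chr6:67987200-67987259. It shares a run of 20 bases with a probe of a kappa V-V region L7-like transcript, which the word like kept out of the members and which stood at -1.21. JX420695 had FAF signals of 1076 and 1072 and Conv signals of 2067 and 2570, at -1.10 ± 0.16, and it maps to chr6:68206771-68206830. It did not pass under median centring (-1.05), where the arrays did not both reach 1.5-fold, or with the FAF-in-Cy5 array by itself (-0.94). JX420695 was the member closest to the limit on the inside, and both probes of U55589 were the closest outside, at -1.0 ± 0.06 and -0.97 ± 0.05. Both U55589 probes passed the rule with an offset of 10 (-1.05 and -1.47), without background correction (-1.02 and -1.19) and by the software ratio (-1.11 and -2.20).

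The junction probes counted here are the 4 printed above and a second probe named Iglv1 that bridges the same genomic gap. Of these 5, Igkv1-117 alone passed the rule. Igkv6-14, at -0.82 ± 0.17, also ends in the first bases of a joining segment (TTCGGA) without holding the whole pattern, and it did not pass. Igkv9-120, at 0.08 ± 0.16, ends in TACACG, the bases that precede TTCGGA in Igkv6-14. It maps beyond the joining end of L18942, was not counted as a junction probe and did not pass. U55685, of an antibody against DNA, shares 15 bases of the variable part with Igkv1-117 and stood at -0.81 ± 0.14, or -1.12 and past the rule by the software ratio. L18942 reached into the joining cluster across 18447 bases of genome and stood at 0.39 ± 0.13. The 2 lambda probes of this kind, which bridge 21815 and 21818 bases, stood at 0.19 ± 0.12 and 0.08 ± 0.07. Junction probes thus lay on both sides of 0 in kappa, while both lambda ones were above it.

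The lambda probes that lie in a constant exon divided by exon. Iglc2, the constant exon of lambda 2, had FAF signals of 9503 and 9310 and Conv signals of 30542 and 27104. Its log2 ratio was -1.61 ± 0.07, or 3.06-fold lower in FAF, and its probe maps to chr16:19198545-19198604. AF138742, of the joining and constant cluster of lambda 3, had FAF signals of 13379 and 13475 and Conv signals of 34082 and 31617. Its log2 ratio was -1.29 ± 0.06, or 2.44-fold lower, and it maps to chr16:19065462-19065521. Under median centring it stood at -1.27 and did not pass, because the arrays did not both reach 1.5-fold. In both, the FAF signals of the 2 arrays lay close together and well under the Conv signals. Probes were compared with other probes and not with whole transcripts. Whether the AF138742 probe also binds lambda 2 transcripts was thus not checked, and the 2 may not be independent readings.

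The 8 lambda probes named Iglv1 stood between 0.08 and 0.33, with a median of 0.19, and none passed the rule. Of these, 2 lie in the constant exon of lambda 1. The probe of AK008094 shown above had FAF signals of 140723 and 115992 and Conv signals of 96393 and 139216, the brightest of the members. Its arrays gave 0.55 and -0.26, so that the diets overlapped, and the mean was 0.14 ± 0.40. The probe of M94350 in the same exon had 0.20 ± 0.23, with FAF signals of 56581 and 49412 and Conv signals of 42040 and 50604. It gave 0.43 on one array and -0.03 on the other, so here too the diets overlapped.

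The other probes named Iglv1 read variable sequence. In AK008145, 3 probes stood at 0.26 ± 0.11, 0.21 ± 0.04 and 0.09 ± 0.00. The variable probe of M94350 stood at 0.33 ± 0.00, with FAF signals of 11091 and 10996 and Conv signals of 8820 and 8775. All 8 probes share a single gene name and 2 of them share a run of 24 bases. They are repeated readings under 1 gene name rather than 8 genes. Whether the variable probes among them also bind transcripts of the lambda 2 variable segment was not checked. A probe in the variable segment does not show which constant exon its transcript carries. No member is described as a kappa constant exon, so a total of kappa RNA was not read by these probes.

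After the 3 higher probes, the next in order were all short of the rule. Igk-V21 had FAF signals of 897 and 809 and Conv signals of 483 and 536, at 0.74 ± 0.15. NP060121, HQ446665 and Z25442 stood at 0.57 ± 0.11, 0.55 ± 0.07 and 0.49 ± 0.15. Igkv4-57-1, FM180447 and Igkv4-86 stood at 0.46 ± 0.01, 0.44 ± 0.01 and 0.33 ± 0.01. From NP060121 to Igkv4-57-1, neighbours in this order did not differ beyond the distance between their arrays.

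At the other end, after U55589, Igkv6-14 of kappa family 6 had FAF signals of 1480 and 1413 and Conv signals of 2313 and 2804, at -0.82 ± 0.17. EU915644 stood at -0.70 ± 0.02, JQ085280 at -0.52 ± 0.01, U29631 at -0.46 ± 0.08 and X12401 at -0.43 ± 0.09. EU915644 passed the rule with an offset of 10 (-1.06) and by the software ratio (-1.51), and U29631 by the software ratio (-1.85). The other 20 measured kappa probes lay between AF163743 at -0.37 and Igkv6-20 at 0.26, and 0 of them passed the rule. By the software ratio Igkv9-129, at -0.22 here, passed at -1.06, and Igkv8-16, at -0.30 here, stood at -0.89. EU915644 and FM180447 share a run of 20 bases and yet stood on opposite sides of 0, 1.15 apart. In all, 35 of the 55 measured members lay within 0.5 of 0. The arrays differed from their mean by a median of 0.07 over the members and by at most 0.40.

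By chain, kappa had 3 higher and 6 lower probes of 44 measured and a median of -0.15. Lambda had 0 higher and 2 lower of 10 and a median of 0.17. By name, the 22 probes with a kappa or lambda gene name had 1 higher and 1 lower and a median of 0.12. The 33 measured probes with an accession for a name had 2 higher and 7 lower and a median of -0.25. Kappa family 4 had the most probes with a family name, 6 in number, with Igkv4-71 included by its description. These ranged from -0.25 for Igkv4-71 to 0.46 for Igkv4-57-1. By position these probes lie close together on the minus strand, at chr6:69494430-69494489 and chr6:69494651-69494886. They may therefore read the same segment, and the label Igkv4-71 was not checked against position. RefSeq lists each kappa segment named here as a variable segment, but it resolves Igk-V21 to Igkv1-117, the name of another member. The Igk-V21 probe stood at 0.74 and the Igkv1-117 probe at -1.57, so the segment of Igk-V21 is not settled. Members that share at least 20 bases formed 7 pairs, with a median difference in log2 ratio of 0.15, beside 0.67 for the 1478 other pairs of members.

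Along the kappa locus, the mapped probes run over 3.11 Mb from position 67560270 to 70672917, with the joining cluster at the high end. The last position is that of Igkv9-120, which maps beyond the joining end of L18942. Its place in this order may therefore not be that of its variable segment. In the first 14 measured probes in genome order, farthest from the joining cluster, 2 were higher and 5 lower, and the median was -0.24. The next 14 held 0 of each, with 12 below 0 and ratios from -1.0 to 0.57. The last 13 held X05391 as higher and 0 lower, with 8 above 0 and a median of 0.19. Probes on this stretch that are not members numbered 34, of which 29 were measured. Of these, 0 were higher and 6 were lower, with ratios from -2.20 to 0.70 and a median of -0.36. Among the lower ones, X75105, X63808, U22906, X67198 and an L7-like probe are labelled as kappa or antibody light chain variable regions. The wording of their labels kept them out of the members, so the 34 are not free of light chain probes. The other lower one, NAP100137-001, is described as unknown.

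Heavy chain probes, chosen by text in the same manner, gave a comparable share of calls. Of 54 measured, 2 were higher and 10 lower, or 22.2%, with a median of -0.44 and a range from -2.21 to 2.69. Their ratios had an SD of 0.83, beside 0.98 for light chains. Both kinds of chain thus had probes far above and far below 0 in the same RNA pair.

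Plasma cell genes, with Pigr added to the list for IgA transport, lay mostly below 0. All 17 of the list were measured, 16 were below 0, and the median was -0.52 with an SD of 0.35 and a range from -1.07 to 0.30. The plasma cell regulators Xbp1 and Prdm1 stood near 0, at -0.09 ± 0.04 and -0.06 ± 0.02. Fkbp11, a folding enzyme of secretory cells, was the member past the rule, at -1.07 ± 0.03. Jchain, which links IgA and IgM into polymers, stood at -0.48 ± 0.16, and Pigr, the epithelial receptor that carries polymeric IgA into the lumen, at -0.88 ± 0.05. The summed signal of the list was 106091 and 93712 in FAF and 147604 and 142976 in Conv. The part of plasma cell RNA in the light chain ratios was not tested. In the same RNA, 32 of the 55 measured light chain probes were below 0, among them the 8 lower ones, and 23 were above 0.

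B cell and follicle genes had 0 of 14 measured genes past the rule and a median of -0.22, with 11 below 0. Ciita, the activator of MHC class II genes, stood at -0.97 ± 0.07 and Cd79b, a signalling chain of the B cell receptor, at -0.83 ± 0.10. Their summed signal was 4036 and 4074 in FAF and 5545 and 5488 in Conv. The defining markers Cd79a, Pax5, Blk, Cr2, Fcer2a and Cxcr5 did not reach that level over background in any diet and have no ratio. Genes of light chain assembly and the surrogate light chain, which stands in for a light chain in B cell precursors, had 0 of 13 measured genes past the rule and a median of -0.05. Of these, Vpreb3 stood at -0.79 ± 0.04 and Vpreb2 at 0.54 ± 0.15, while the recombinase genes Rag1 and Rag2 and the surrogate chain Igll1 were not measured. Endoplasmic reticulum folding genes had 0 of 15 past the rule and a median of -0.28, with Herpud1 at 0.80 and Pdia6 at -0.75.

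Markers of other cells in the tissue also differed between the samples, and their part in the light chain values was not tested. All 14 epithelial genes, which define the labelled tissue, were measured. Their median was 0.41, and 0 were lower and 5 higher, including Apoa4 at 2.71, Fabp1 at 2.02, Sis at 1.70 and Lct at 1.62. Their summed signal was 1059345 and 1128026 in FAF and 574987 and 679890 in Conv. Of 8 fat genes 1 was higher, Cidec at 1.06, and 5 were lower, with Cfd at -2.72, Adipoq at -2.08 and Car3 at -2.07. The smooth muscle genes were all 8 below 0 at a median of -0.55, with Synm at -0.76 and Des at -0.74, and 0 passed. For T cell genes the median was -0.31, and 2 of 13 were lower, the co-receptor chain Cd8b1 at -1.33 and the surface receptor Cd5 at -1.05. Myeloid genes had 1 of 12 lower, Cd14 at -1.08, and a median of 0.31. The summed signals of the fat list were 20428 and 22225 in FAF and 23423 and 22691 in Conv, and those of smooth muscle 85846 and 87545 against 132423 and 120832. For T cells they were 3458 and 3378 against 4609 and 4924, and for myeloid genes 74955 and 70981 against 70636 and 74635, which overlap between the diets. The brightest genes weigh most in such sums.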

How the data were processed

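Spot intensity on a linear scale, local background and quality flags for each dye were deposited for 2 arrays. Per the file headers they were made by Agilent Feature Extraction, version 11.5.1.1, with probe positions in mm9. The deposited log10 ratio of Cy5 over Cy3, which that software corrected for background and dye per the file headers, equals the series' value table to within 5e-08. Ratios were recomputed from mean intensity with limma 3.58.1 in R 4.3.3, by normexp with an offset of 50 and loess on each array, turned to FAF over Conv by the labelled dyes. Control and outlier spots were left out (0 spots were saturated), and spots of a probe were averaged. Signals given per diet followed loess and quantile scaling. A fold against a diet not well above background was taken against the higher of the probe's own signal and the lowest signal well above background. For the members concerned it equals the fold of the mean. It does not allow for the gap between the arrays.

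A marker gene was represented by its brightest measured probe. With 1 RNA sample per diet no p-value was computed, and the number of arrays limits the precision. The steps were tested on simulated data. Named were all members past the rule, all constant, joining and lambda probes, the 8 highest and 8 lowest others, and from each marker list up to 4 past the rule, otherwise 2 of largest ratio. Further members named were chosen with their values in view. Members, lists and rules were chosen with earlier results of these data known. Probe sequences come from the array files, and segment names were looked up in RefSeq (GRCm38.p6), which left that of Igk-V21 unsettled. A gene withheld for evaluation is not reported here.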

Additional observations from a re-analysis of the deposited data

How the results depend on the processing

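All 11 called light chain probes kept their sign under each of the 10 alternatives on the values that kept them. Of these, 9 had a value under all 10 alternatives, and 7 of the 9 stayed past the rule under each. Igkv2-112 and NP513809 were removed when probes had to clear background in each diet, and passed the rule under the others. JX420695 was lost under median centring (-1.05) and with the FAF-in-Cy5 array by itself (-0.94), and AF138742 under median centring (-1.27). Under median centring both means were past 2-fold, so the arrays did not both reach 1.5-fold. Why the arrays differed there was not tested. Of all 55 measured members, 48 kept their sign wherever they had a value. The lower light chain count was 14 with the software's log ratio or the deposited value table (the 8 with both U55589 probes, U55685, EU915644, U29631 and Igkv9-129), 13 at a mean of 1.5-fold and 2 at 4-fold. The higher count was 1 when only probes well above background in each diet were kept. With gene-named members only, 1 was higher and 1 lower, with a median of 0.12. All probes gave 97 lower under median centring, 634 higher and 446 lower with the software's ratio or the value table, 1015 and 736 at 1.5-fold, and 34 and 19 at 4-fold. The Iglv1 median was 0.32 with the FAF-in-Cy5 array by itself. Marker medians that moved were, with an offset of 10, B cell -0.32, T cell -0.44 and fat -1.56, and without background correction, fat -1.35. With the software's ratio or the value table they were B cell -0.49, assembly -0.12, T cell -0.55 and fat -2.13. Without the filter on dim probes, B cell genes had -0.09. The FAF-in-Cy5 array by itself gave assembly 0.00 and epithelium 0.62, and the other array plasma cell -0.62, folding -0.20 and T cell -0.43. The alternatives added after seeing the data changed no call by over 1.5 times. Keeping the 2 L7-like kappa probes gave 3 higher and 9 lower, and 1 probe for each of 44 sets sharing 20 bases or an accession gave 3 and 7. No paired analysis was possible because the 2 arrays hold the same pair of RNA samples. Signal over background limits the dim probes, whose ratios the offset shrinks.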
